A study of Mus musculus with 4 samples.

Results

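Otx2 rose in mouse embryonic stem (ES) cells without the zinc finger transcription factor Klf5. Fgf5 also passed the test, but only its level in the cells without Klf5 made it bright enough to be tested. That call was lost under several alternative processings. The other 7 of 9 genes of the post-implantation epiblast did not pass. The 9 genes, Otx2, Fgf5, Pou3f1, Zic2, Zic5, Sall2, Foxd3, Sox3 and Sox4, were picked by name from the 18193 genes that the platform annotation gives to single-gene probe sets, and every probe set with 1 of these symbols was read. The groups were 2 Klf5 KO clones and 2 WT clones, each clone on 1 Affymetrix array. All 4 grew in ES medium with 15% FBS (fetal bovine serum) and LIF, the cytokine that holds mouse ES cells undifferentiated. The labels do not name the parent line, its strain, the knocked-out allele or any feeder layer. With the main processing, the p-values measure the spread between clones as labelled.

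ES cells correspond to the naive epiblast of the blastocyst, the founder tissue of the embryo. After implantation this tissue passes into a primed state: naive factors decline, Otx2 and other factors take over, and the cells become able to form the germ layers. Otx2 is a homeobox factor that works with Oct4 at the enhancers of this step and is later needed for the anterior brain. Fgf5 is a secreted fibroblast growth factor and a customary marker of the primed epiblast. Pou3f1 (Oct6) is a POU factor of the primed epiblast and of glia. Zic2 and Zic5 are zinc finger factors of epiblast and neural plate, Sall2 a zinc finger factor of the spalt family, Foxd3 a forkhead factor needed by epiblast and neural crest, Sox3 an HMG-box factor related to Sox2 that marks neural progenitors, and Sox4 an HMG-box factor of progenitors in many tissues.

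The promoter sequences of the 2 genes that passed the test are shown. Both are RefSeq sequences of GRCm38.p6, the 250 bases before the annotated start, 5′ to 3′ on the strand of the gene. Capitals mark CCNCNCCC (N is any base, both strands searched, overlapping matches counted separately), the GC or CACCC box that Sp and Kruppel-like factors bind. It occurs in 45.9% of the 32851 promoter windows of the same length. The Otx2 window lies at chr14:48667645-48667894 on the minus strand and belongs to the most upstream of its 4 annotated starts. The Fgf5 window lies at chr5:98253934-98254183 on the plus strand.
Otx2: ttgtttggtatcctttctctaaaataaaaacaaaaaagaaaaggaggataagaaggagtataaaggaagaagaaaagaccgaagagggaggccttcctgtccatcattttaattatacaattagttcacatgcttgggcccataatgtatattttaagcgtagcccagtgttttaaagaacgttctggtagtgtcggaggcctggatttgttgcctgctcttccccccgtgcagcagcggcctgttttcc
Fgf5: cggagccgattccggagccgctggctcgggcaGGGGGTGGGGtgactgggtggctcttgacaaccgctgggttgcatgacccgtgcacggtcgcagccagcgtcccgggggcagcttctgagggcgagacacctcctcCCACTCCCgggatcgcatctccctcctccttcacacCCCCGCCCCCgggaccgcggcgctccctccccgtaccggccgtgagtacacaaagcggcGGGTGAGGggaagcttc
The Otx2 window held no match and the Fgf5 window 6. The windows of the other Otx2 starts held 1, 0 and 7 matches, in order from upstream to downstream. The G and C content was 42.0% for Otx2 and 70.8% for Fgf5, against a median of 52.4% over all windows. An Otx site, TAATCC, was in 6.25% of all windows and was absent from both sequences. The window of another Otx2 start, at chr14:48665110-48665359, held 1 match of it. An octamer, ATGCNAAT, was in 2.86% of all windows and also absent from both. A Sox site, ACAANG, was in 36.3% of all windows, with 1 match in Fgf5 and 0 in Otx2. In all, 6 of the 9 genes had at least 1 window. Foxd3 held 3 matches of CCNCNCCC, Sox4 2, Zic5 5 and the starts of Sall2 0 and 7. A match is a run of letters, not a known binding site.

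The brightest Klf5 probe set separated the arrays as labelled. This probe set (1451021_a_at) had a normalized intensity of 34.8 and 49.9 in Klf5 KO clones 1 and 2, against 2398 and 1782 in WT clones 1 and 2. The other Klf5 probe sets did not show this loss. One (1451739_at) had 82.6 and 61.0 in KO clones, against 102 and 88.6 in WT clones (log2 difference -0.35; limma, adjusted p = 0.36), and the other (1430255_at) was below the filter and overlapped. Which part of the gene each covers, or was deleted, is not stated in the files. The trimmed mean of the deposited arrays ran from 138 to 227, with WT clone 1 brightest, and the arrays were therefore quantile normalized. The 10 ES cell markers, Pou5f1, Nanog, Sox2 and Zfp42 among them, were all above the filter on dim probe sets. Their intensities summed to 35849 and 36425 in KO clones and 38028 and 38328 in WT clones. Of these markers 7 had a negative and 3 a positive difference, with a median of -0.185, beside -0.024 over all genes tested. By the test 0 passed, and 1 fell with a pseudocount of 64, median centring or a variance trend. Of 20 fibroblast markers, 19 were named on the array and 17 were tested. In the same arrays 15 of these rose, where 2.94% of all tested genes did. Dcn and Prrx1, counted among the 15, read under the filter intensity of 13.05 in both WT clones. They entered the test through their level in the KO clones. The list's intensities summed to 8803 and 7904 in KO clones and 852 and 752 in WT clones. The count of 15 became 9 with a pseudocount of 1 or no filter. The tested fibroblast markers that did not pass were Pdgfra and Twist1. Lum and Fap were below the filter. The part of fibroblast-type RNA in the epiblast gene differences was not tested. In such bulk RNA, fewer cells of a type and less RNA per cell cannot be told apart.

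The 9 genes had 21 probe sets on the array. Of these, 17 were bright enough to be tested and 4 (1 of Fgf5, 1 of Sox3, 2 of Sox4) were below the filter, a mean log2 value at the 40th percentile that corresponds to an intensity of 13.05. Differences are Klf5 KO minus WT on the scale log2(normalized intensity + 16), which understates the change of dim genes. Errors are moderated standard errors (SE) from limma with n = 2 arrays per group, and p-values are adjusted over all 27022 tested probe sets (Benjamini-Hochberg). By this test 2 of the 17 probe sets rose, 0 fell and 15 did not pass, where 3.69% of all tested probe sets passed in either direction, 2.44% higher and 1.25% lower in KO. At 1 probe set per gene, 2 of 9 genes rose and 7 did not pass, where 4.28% of 13023 genes passed, 2.94% higher and 1.34% lower in KO. The members were chosen with earlier results of these arrays known, so their count is a description. That count includes Fgf5, which was bright enough to be tested only through its level in the KO clones. For 6 of the 9 genes both KO clones read above both WT clones, an order that 25.9% of all tested genes had. For 1 gene, Foxd3, both read below, as for 29.7% of all tested genes. The 6 include Fgf5. In the values as deposited, Otx2 and Fgf5 kept this order. At the same probe sets Pou3f1, Zic2, Zic5, Sox4 and Foxd3 overlapped between the genotypes before normalization. The median difference of the 9 genes was 0.304, beside -0.024 over all genes tested. The median was 0.586 without WT clone 1, 0.487 over the 8 genes tested without KO clone 1, and 0.182 in the values as deposited.

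**Figure D1:**
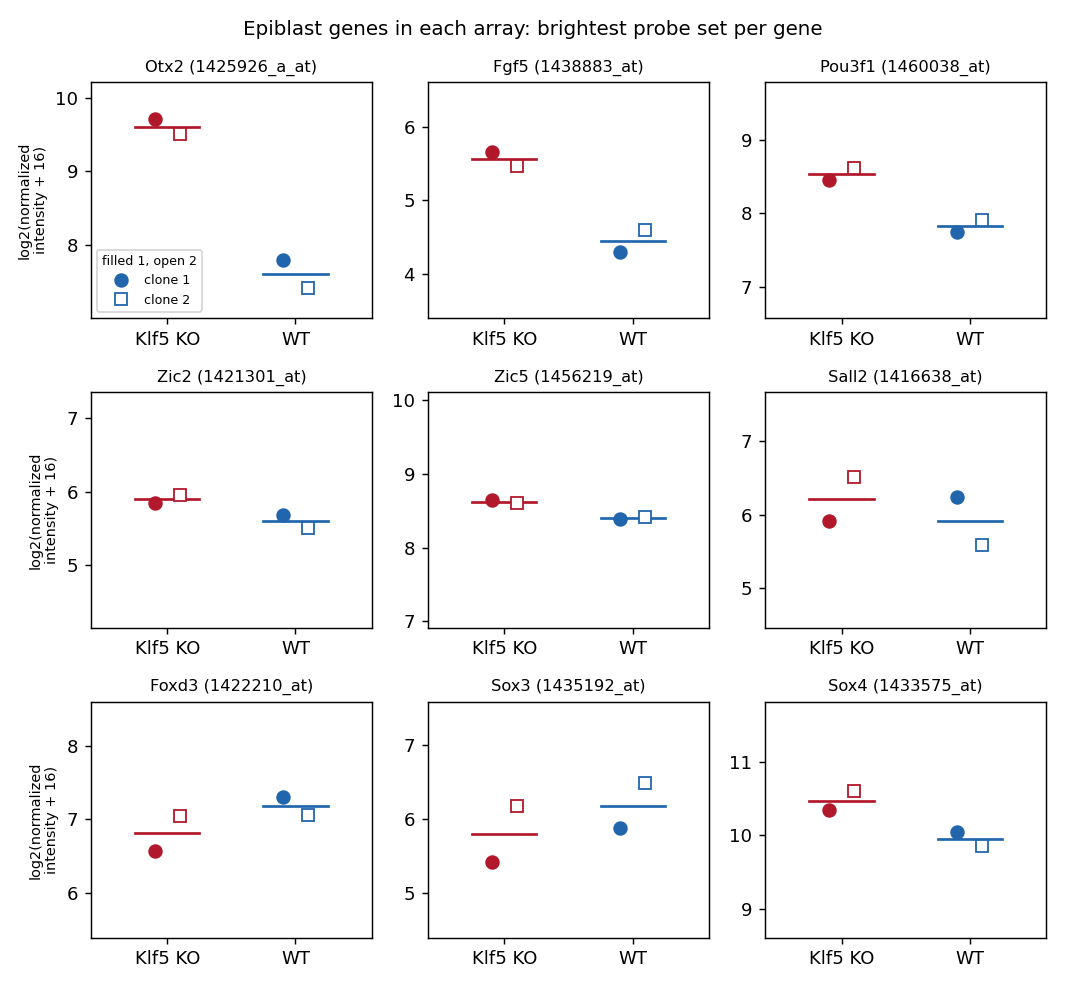
Normalized intensity on the log2(intensity + 16) scale in each array, for the brightest probe set of each gene. Filled circles are clone 1, open squares clone 2, bars the mean of 2 clones, and every panel spans the same range of log2 units. Both Klf5 KO clones lie above both WT clones for Otx2, Fgf5, Pou3f1, Zic2, Zic5 and Sox4, with the widest gap at Otx2, while Sall2 and Sox3 overlap.

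Otx2 had the largest difference of the 9 genes. Its single probe set (1425926_a_at, gene ID 18424) had normalized intensities of 823 and 713 in Klf5 KO clones 1 and 2, against 207 and 155 in WT clones 1 and 2. Both KO clones were well above both WT clones, and the 4 ratios of a KO to a WT clone ran from 3.44 to 5.31. The log2 difference was 2.00 ± 0.20 (SE; limma, adjusted p = 0.0013), a 4.0-fold rise. The clones of a genotype differed by 0.20 (KO) and 0.38 (WT) on the same scale. In the values as deposited Otx2 read 673 and 648 in KO clones, against 291 and 130 in WT clones. The difference there was 1.67 (limma, adjusted p = 0.0014). In that setting the SE was 0.38 at every tested probe set of the 9 genes. Its p-values therefore do not use the clone spread of each probe set. Otx2 stood at rank 55 of 13023 genes by size of rise, and it passed in each of 13 alternative processings, with differences from 1.67 to 2.16 and a highest adjusted p of 0.044, with a pseudocount of 1.

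The genes whose 4 log2 values, each set centred on its own mean, lay nearest to those of Otx2 were Ccnd2, Nfix, Ccdc80, Csf1 and Gm2115. The likeness was measured by Euclidean distance over 4 arrays and therefore reflects mainly the size of the KO to WT step. Ccnd2, which encodes cyclin D2, lay at a distance of 0.062 and had 901 and 786 in KO clones, against 224 and 179 in WT clones. The transcription factor gene Nfix followed at 0.102, with 95.3 and 90.8 in KO clones and 14.8 and 7.89 in WT clones. Ccdc80, a gene of the extracellular matrix, lay at 0.179, the cytokine gene Csf1 at 0.192 and Gm2115 at 0.245. None of these 5 genes was on a list of epiblast genes used here.

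Fgf5 rose to a low level. Its brighter probe set (1438883_at, gene ID 14176) had normalized intensities of 34.3 and 28.1 in Klf5 KO clones 1 and 2, against 3.56 and 8.25 in WT clones 1 and 2. Both WT values were under the filter intensity of 13.05, so this probe set entered the test through its level in the KO clones. The log2 difference was 1.11 ± 0.20 (SE; limma, adjusted p = 0.019). Its size rests on the pseudocount, at 2.30 with a pseudocount of 1 (adjusted p = 0.091) and 0.45 with one of 64 (adjusted p = 0.055). The call was also lost without WT clone 1 (0.91, adjusted p = 0.086), with no filter (adjusted p = 0.10) and in the values as deposited (1.09, adjusted p = 0.15). With either KO clone left out the probe set was below the filter and gave no value. The other Fgf5 probe set (1426186_a_at) was below the filter, with 24.4 and 12.8 in KO clones, against 9.89 and 1.84 in WT clones, and a difference of 0.67 when no filter was applied. At both probe sets the genotypes did not overlap.

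Pou3f1 was higher in both KO clones at both of its probe sets and did not pass. The brighter one (1460038_at) had 334 and 374 in Klf5 KO clones 1 and 2, against 197 and 224 in WT clones 1 and 2. Its difference was 0.71 ± 0.18 (95% confidence interval 0.29 to 1.12; limma, adjusted p = 0.075). The dimmer one (1422068_at) had 136 and 164 in KO clones, against 65.7 and 87.2 in WT clones. Its difference was 0.85 ± 0.20 (0.39 to 1.31; adjusted p = 0.057). The groups did not overlap at either probe set, and the clones of a genotype lay within 0.34 of each other. The interval of a probe set is not adjusted for the number tested, so it can leave out 0 where the adjusted p does not pass. With each gene taken as the mean of its probe sets, Pou3f1 passed (0.78, limma, adjusted p = 0.015). In that setting 1062 of 10856 genes passed. Both probe sets passed with a pseudocount of 64 (adjusted p = 0.019 and 0.025), with the filter at the 60th percentile (0.037 and 0.027) and with a variance prior with trend (0.031 and 0.024). Neither passed in any of the 4 leave-outs of 1 array. In the values as deposited the genotypes overlapped at the brighter probe set, with 272 and 346 in KO clones, against 277 and 186 in WT clones. Its difference was 0.41 there (adjusted p = 0.78) and 0.45 after median centring (adjusted p = 0.33). The dimmer one had 0.65 (adjusted p = 0.57) and 0.68 (adjusted p = 0.094) under the same settings.

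**Figure D2:**
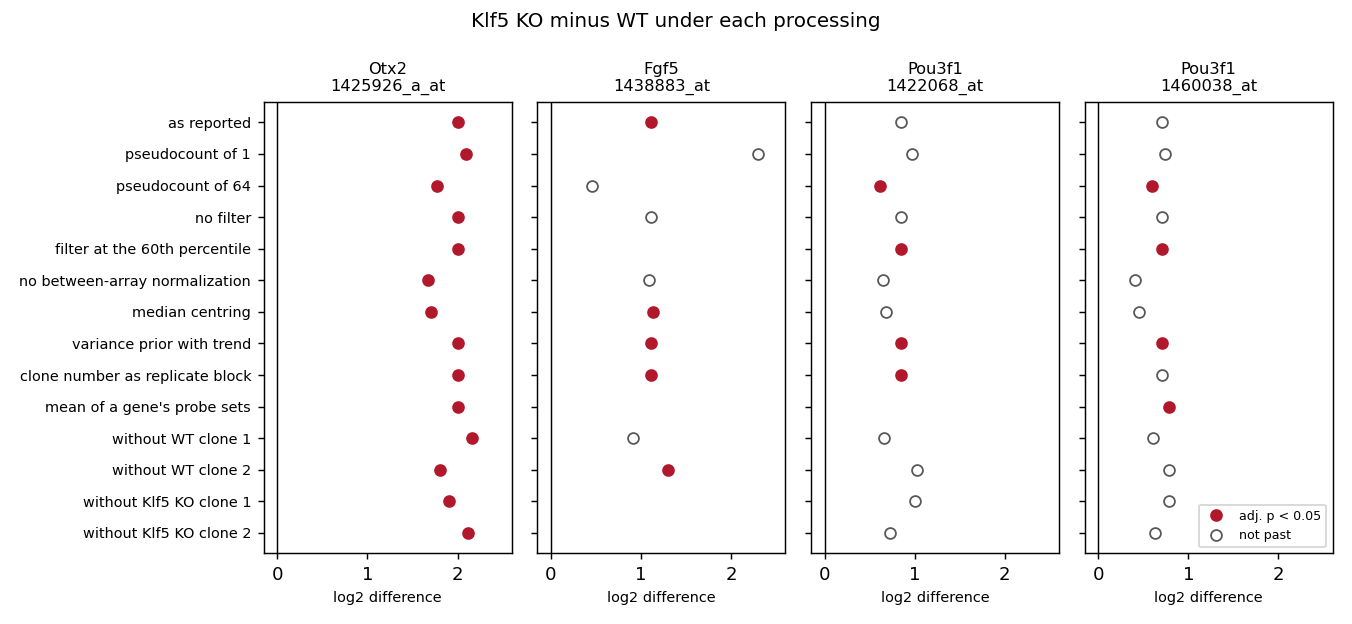
Klf5 KO minus WT difference on the log2 scale for Otx2, Fgf5 and both Pou3f1 probe sets under each processing, where filled red points have an adjusted p under 0.05 and a missing point was below the filter. Otx2 is filled in every row, from 1.67 to 2.16, whereas Fgf5 runs from 0.45 to 2.30 with the pseudocount.

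The zinc finger genes Zic2 and Zic5, which neighbour each other on chromosome 14 with 1 annotated transcript (2610035F20Rik) between them, did not pass. Zic2 (1421301_at) had 41.7 and 46.2 in Klf5 KO clones, against 35.8 and 29.5 in WT clones. The KO clones were slightly above the WT clones, with a difference of 0.30 ± 0.18 (95% confidence interval -0.11 to 0.72; limma, adjusted p = 0.39). The brightest of the 3 Zic5 probe sets (1456219_at) had 382 and 371 in KO clones, against 318 and 323 in WT clones. The difference of 0.22 ± 0.18 (-0.18 to 0.62; adjusted p = 0.52) turned negative in the values as deposited (-0.092) and after median centring (-0.054). A further Zic5 probe set (1456140_at) had 281 and 271 in KO clones, against 258 and 89.7 in WT clones. There WT clone 2 stood apart from the other 3 arrays. The difference was 0.78 ± 0.37 (adjusted p = 0.28), 0.09 without WT clone 2 and 1.42 without WT clone 1 (adjusted p = 0.0095). The last Zic5 probe set (1425666_at) overlapped between the genotypes, at 41.1 and 68.0 in KO clones and 46.9 and 41.6 in WT clones.

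Sall2 overlapped between the genotypes, and Foxd3 and Sox3 had negative differences that did not pass. Sall2 (1416638_at) had 44.7 and 74.9 in Klf5 KO clones, against 59.6 and 32.3 in WT clones, and its difference was 0.30 ± 0.27 (95% confidence interval -0.32 to 0.91; limma, adjusted p = 0.58). It was -0.026 without WT clone 2. Foxd3 (1422210_at) had 79.0 and 117 in KO clones, against 142 and 118 in WT clones. KO clone 2 and WT clone 2 were nearly equal here, at a ratio of 0.991. The Foxd3 difference was -0.37 ± 0.22 (-0.87 to 0.12; adjusted p = 0.37), and it stayed negative in 13 of 13 alternatives. Sox3 (1435192_at) had 26.5 and 56.5 in KO clones, against 42.7 and 73.8 in WT clones. Clone 1 read lower than clone 2 in both genotypes, with a clone 1 minus clone 2 difference of -0.77 (KO) and -0.61 (WT) on the log2 scale. Its difference was -0.39 ± 0.29 (-1.05 to 0.28; adjusted p = 0.49). The other Sox3 probe set (1450485_at) was below the filter, at 14.6 and 10.1 in KO clones and 6.89 and 14.1 in WT clones.

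Sox4 was measured by 8 probe sets, of which 6 were tested. The brightest (1433575_at) had 1284 and 1532 in Klf5 KO clones, against 1044 and 916 in WT clones, so the groups did not overlap. Its difference was 0.51 ± 0.19 (95% confidence interval 0.08 to 0.95; limma, adjusted p = 0.18). The other 5 tested probe sets had differences of 0.14 to 0.21, and 4 of these overlapped between the genotypes. In the values as deposited, 3 of them turned negative (1419155_a_at, 1419156_at and 1419157_at, at -0.11, -0.066 and -0.061). Those below the filter read at most 1.80 in any array. None of the 6 passed under any of the alternatives that gave a value.

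**Figure D3:**
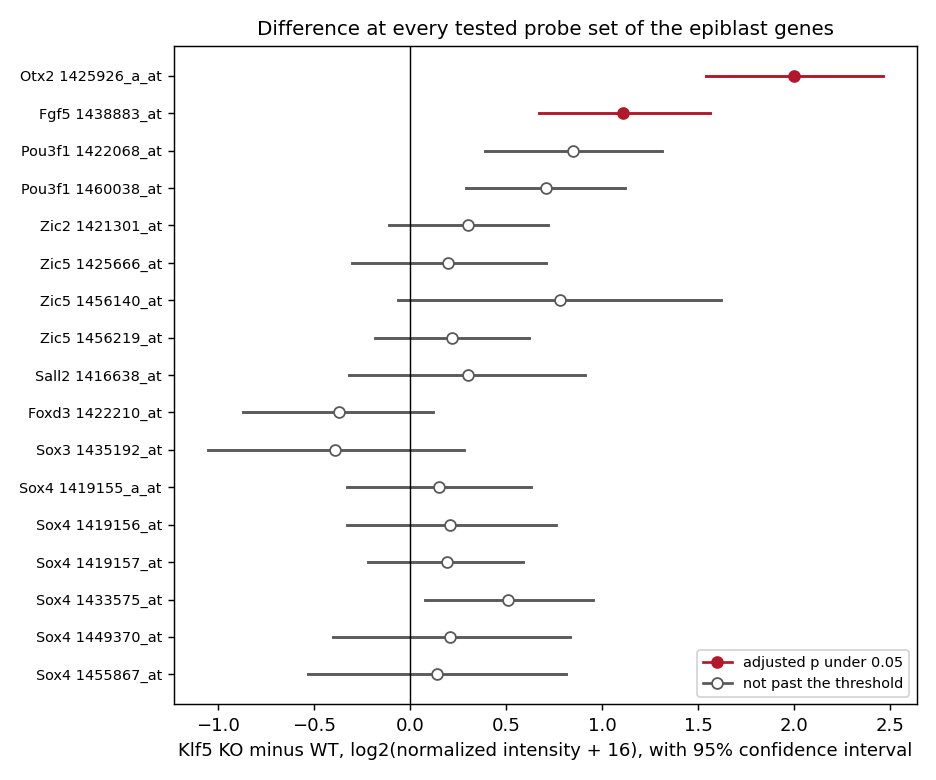
Klf5 KO minus WT difference with its 95% confidence interval, on the log2(normalized intensity + 16) scale, for the 17 tested probe sets of the 9 genes. The filled red points, Otx2 at 2.00 and Fgf5 at 1.11, passed at an adjusted p under 0.05. Fgf5 was bright enough to be tested only through its level in the KO clones. Most other intervals include 0, apart from both Pou3f1 probe sets and 1 of Sox4.

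Of other genes of the post-implantation epiblast, 1 passed. Of 16 listed, 13 were tested, 1 rose, 0 fell and 12 did not pass, where 2.94% of all tested genes rose and 1.34% fell. The median difference of the list was 0.001, beside -0.024 over all genes tested. That median was -0.31 in the values as deposited and -0.27 after median centring, settings under which the median of all tested probe sets also moved, to -0.194 and -0.157. Fgf8, Lin28b and Nkx1-2 were below the filter. The 1 rise became 2 with a pseudocount of 64, the filter at the 60th percentile or a variance trend. It became 0 with a pseudocount of 1, no filter or no between-array normalization. Median centring gave 2 falls and a pseudocount of 64 gave 1. The gene that rose was Cdh2 (N-cadherin, an adhesion molecule that fibroblasts also make), with 328 and 396 in Klf5 KO clones, against 178 and 133 in WT clones, a difference of 1.15 ± 0.21 (limma, adjusted p = 0.020). That call was lost without WT clone 2 (difference 0.962), KO clone 1 (1.29) or KO clone 2 (1.03). It was also lost with a pseudocount of 1, with no filter and without between-array normalization. The de novo DNA methyltransferases, which rise at this step in the embryo and were chosen here after their values were seen, lay on opposite sides of 0. Dnmt3a had 1001 and 1301 in KO clones, against 692 and 556 in WT clones, and a difference of 0.86 ± 0.21 (adjusted p = 0.061). Dnmt3b had 2105 and 2294 in KO clones, against 2507 and 3254 in WT clones, and a difference of -0.38 ± 0.20 (adjusted p = 0.32).

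Among 16 naive ES cell genes that decline at the step to epiblast, 15 were tested, 0 rose, 3 fell and 12 did not pass. Over all tested genes, 2.94% rose and 1.34% fell. The list had a median difference of -0.309. The median was -0.60 in the values as deposited and -0.562 after median centring, where that of all tested probe sets was -0.194 and -0.157. Nr0b1 (Dax1), a nuclear receptor, had 295 and 323 in Klf5 KO clones, against 1108 and 730 in WT clones (difference -1.50 ± 0.23; limma, adjusted p = 0.0095). Tcl1, which boosts the kinase AKT, had 258 and 336 in KO clones, against 731 and 736 in WT clones (-1.27 ± 0.20; adjusted p = 0.010). Gbx2, a homeobox factor that opposes Otx2 at the midbrain border, had 99.3 and 104 in KO clones, against 236 and 186 in WT clones (-0.94 ± 0.19; adjusted p = 0.032). The call of Nr0b1 was lost when either KO clone was left out (adjusted p = 0.11 without KO clone 1, 0.064 without KO clone 2), that of Tcl1 without KO clone 1 (0.097), and Gbx2 in each of the 4 leave-outs (0.057 to 0.17). The 3 falls became 0 without KO clone 1, 1 without KO clone 2, 0 with a pseudocount of 1 or no filter, and 5 with median centring, a pseudocount of 64 or a variance trend. Against the direction of the list, Dppa3 (Stella), a gene of early embryo and germ cells chosen here after its values were seen, had 895 and 1007 in KO clones, against 343 and 674 in WT clones (0.96 ± 0.29; adjusted p = 0.11). It passed as a rise with a pseudocount of 64, a variance trend, clone number as a block or without WT clone 2. Nanog, a core factor, had 2448 and 2843 in KO clones, against 2901 and 3068 in WT clones (-0.18; adjusted p = 0.63). Pou5f1 (Oct4) had a difference of -0.30 (adjusted p = 0.39) and Sox2 one of -0.25 (adjusted p = 0.46).

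Among genes of early neural tissue, primitive streak and primitive endoderm, 1 passed, where 4.28% of all tested genes passed in either direction. Of 18 early neural genes, 7 were tested, 1 rose and 6 did not pass, and 10 were below the filter, Sox1 and Zic1 among them. The one that rose was Hesx1, a homeobox repressor of the anterior neural plate, with 133 and 123 in Klf5 KO clones, against 54.0 and 53.3 in WT clones (difference 1.05 ± 0.18; limma, adjusted p = 0.016). The call of Hesx1 was lost in each of the 4 leave-outs of 1 array (differences of 1.01 to 1.11). It was also lost with a pseudocount of 1, with no filter and without between-array normalization. Of 10 primitive streak genes, 5 were tested and 0 passed, and of 10 primitive endoderm markers, 6 were tested and 0 passed. Of 17 paralogues of the 9 genes, 7 were tested and 0 passed. Otx1, Pou3f2, Pou3f4, Zic1, Zic4 and Sall3 were among the 9 below the filter.

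**Figure D4:**
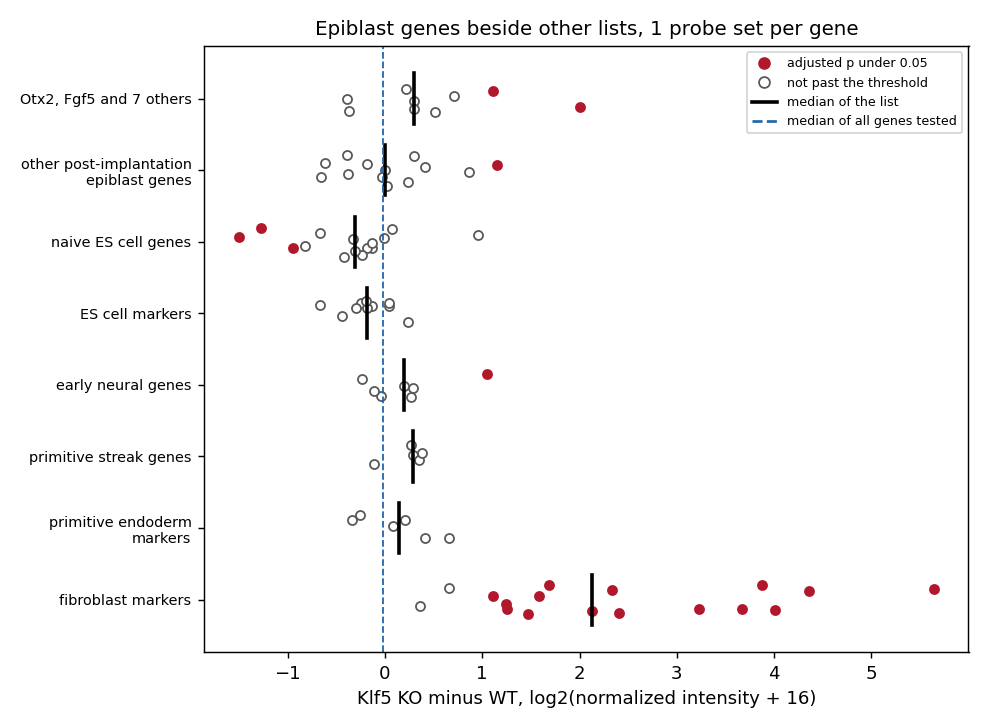
Klf5 KO minus WT difference on the log2(normalized intensity + 16) scale for each tested gene of the lists named on the vertical axis, with black bars at list medians and a dashed line at the median of all genes tested (-0.024). Red points passed at an adjusted p under 0.05. The 9 epiblast genes have a median of 0.304 and the fibroblast markers one of 2.134, in the same arrays.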

How the data were processed

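The authors deposited 1 linear intensity per probe set and array (45101 rows, 64 of them controls). Per the labels' protocols, total RNA was labelled with biotin for Affymetrix GeneChip arrays; they do not state the summary algorithm, background correction or scaling. Because trimmed means (2% off each end) differed by up to 1.65 times, arrays were quantile normalized and log2(intensity + 16) was taken, so a shift common to most genes would not be seen. Probe sets below the 40th percentile of mean log2 value were removed. KO was compared with WT by limma 3.58.1 in R 4.3.3 (lmFit, eBayes, 6.87 prior degrees of freedom), with 0.05 as the threshold after Benjamini-Hochberg adjustment over 27022 probe sets.

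Of the non-control probe sets, 34945 had 1 gene symbol in the platform annotation, 932 several and 9160 none. Genes were counted by their brightest probe set (_x_at only where there was no other). The text gives values for the 9 members, Klf5, Pou5f1, Sox2, Nanog, up to 4 genes past the threshold each way per list, and the 5 genes nearest Otx2. The fibroblast list is an exception. It is given by counts, sums and a median, without the values of its genes that passed. Dnmt3a, Dnmt3b and Dppa3 were added outside this rule, after their values were seen. Members and lists were chosen with earlier results of these data known. On data simulated for KO against WT over 27022 probe sets, the fit recovered 75% of changes of 1 and 84% of changes of 2 log2 units, and 8.62% of its calls were false, above the 5% the threshold aims at. The simulated noise was independent between probe sets, and its spread was drawn regardless of intensity. Fewer probe sets were changed than the 996 called in the real arrays, and simulated falls at dim probe sets were cut off at a floor. These rates therefore need not hold for the real arrays. Promoters are from RefSeq (GRCm38.p6). No array detection calls were used, and the number of arrays limits the precision.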

Additional observations from a re-analysis of the deposited data

How the results depend on the processing

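The alternatives changed pseudocount, filter, scaling, variance prior, clone block, probe set averaging or left out 1 array. Over all probe sets, the 996 calls became 189 with a pseudocount of 1, 2060 with one of 64, 190 with no filter, 332 without between-array normalization, 2060 with median centring, 1955 with a variance trend and 203 to 653 with 1 array left out. Median centring moved the share of calls that were higher in KO to 31.1% (640 of 2060), against 66.2% as reported (659 of 996). The median difference of all tested probe sets was -0.157 with median centring and -0.194 without normalization, against -0.022 as reported. The cause was not tested. With median centring the SE was 0.27 at every tested member probe set, and without normalization it was 0.38. The p-values of these settings therefore do not use the clone spread of each probe set. Of the 17 member probe sets, the 2 calls became 1 with a pseudocount of 1, 1 with no filter, 1 without normalization, 4 with a variance trend and 1 to 2 with 1 array left out; with either KO clone left out, only Otx2 was called.

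Over all tested probe sets, same-numbered clones showed little common deviation (correlation 0.0545). Such a correlation does not show whether some genes deviate together. Whether same-numbered clones share a batch was not tested. With clone number as a replicate block, 1390 probe sets and 3 member probe sets were called, Pou3f1 1422068_at being added (adjusted p = 0.032).

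Signs turned in these cases, none past the threshold. Without normalization, Zic5 1456219_at had -0.092, and Sox4 1419155_a_at, 1419156_at and 1419157_at had -0.11, -0.066 and -0.061. With median centring the same 4 had -0.054, -0.071, -0.028 and -0.023. Without WT clone 2, Sall2 had -0.026, and Sox4 1419155_a_at, 1419156_at and 1449370_at had -0.092, -0.13 and -0.23. Without KO clone 2, Zic5 1425666_at had -0.078 and Sox4 1455867_at -0.36. With 1 array left out, the highest values were 0.50 and 0.66 for these, 0.61 for Sall2, and 0.38, 0.54 and 0.62 for Sox4 1419155_a_at, 1419156_at and 1449370_at. Of all 206 member values under alternatives, 178 kept their sign and their side of the threshold, 5 lost a call (Fgf5), 9 gained one (Pou3f1 and Zic5) and 14 turned.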
